A study of Mus musculus with 5 samples.

Results

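Notch signalling carries a message between touching cells. Ligands on one cell, the Delta-like and Jagged proteins, bind Notch receptors on its neighbour, the receptor is cut by the γ-secretase complex, and its intracellular part enters the nucleus, where it joins the DNA-binding protein RBPJ and switches on genes such as Hes1 and Hes5. In the retina the pathway is known for keeping progenitor cells undifferentiated and for the formation of Müller glia, the main glial cell of the adult retina, and in the retinal vessels Dll4, Jag1 and Notch4 act in endothelial cells and Notch3 in the mural cells around them. The genes described here were the 4 receptors Notch1, Notch2, Notch3 and Notch4, the 4 ligands Dll1, Dll4, Jag1 and Jag2, and the 2 targets Hes1 and Hes5. They were taken by their symbols, each of which matched 1 row, and make up 10 of the 33636 genes in the count table.

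RNA was measured by sequencing of poly-A-enriched RNA from whole retinas of male wild-type C57BL/6J mice at postnatal day (P) 42. Form deprivation myopia (FDM) is a model in which blurred vision induces a myopic shift in refraction. It had been induced for 2 weeks from P28 by a diffuser goggle fixed to the head in front of the right eye. The open left eye was the control. Every mouse thus carried both treatments, and the control eye was not an eye of an untreated animal. Of 3 mice, 5 libraries were analysed, 2 from FDM eyes (FDM 1 and FDM 3) and 3 from control eyes (Control 1, Control 2 and Control 3), since the authors had left out the FDM library of mouse 2 for its read duplication. FDM 1 and Control 1 are the eyes of mouse 1, and FDM 3 and Control 3 those of mouse 3, by the mouse numbers of the study and the count table, although the sample labels give FDM 3 the number 2. The labels give a refractive error at P42 of 0.976 and 0.2745 in the FDM eyes and between 2.4455 and 3.1505 in the control eyes. All of these values are positive, and those of the FDM eyes are the lower ones. The paper reports a relative myopic shift of the goggled eyes. It found no statistically significant effect on axial length or corneal curvature in these mice.

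Values of a gene are given in the order FDM 1 and FDM 3, then Control 1, Control 2 and Control 3. Library totals ran from 40599047 to 56534931 counts, and a floor of 3 counts corresponded to 0.0526 to 0.0751 CPM (counts per 1000000 counts of the library). Photoreceptor markers summed to between 59960 and 75447 CPM in every library, the labelled tissue being retina. The summed lens markers were at 2191 CPM in FDM 3 and between 3.33 and 21.7 CPM in the other libraries, and all 11 lens markers tested were called higher in FDM. The summed markers of the retinal pigment epithelium were at 74.0 and 62.4 CPM in FDM 1 and FDM 3, and 6 of 10 were called lower. In Control 1, 2 and 3 they were at 78.2, 262 and 242 CPM, so that Control 1 lay close to FDM 1 of the same mouse. Markers of the cells that carry much of Notch signalling had overlapping sums. Those of Müller glia ran from 5055 to 5236 CPM in FDM and from 5069 to 5542 CPM in control eyes, those of endothelium from 355 to 390 CPM against 342 to 393 CPM, and those of pericytes and smooth muscle from 113 to 117 CPM against 112 to 117 CPM. None of the 12 Müller glia, 12 endothelial or 10 pericyte and smooth muscle markers passed the test, and none was at 0. Microglial markers summed to 58.6 and 60.9 CPM in FDM and to between 60.4 and 69.7 CPM in control eyes, with 0 of 10 called. All 10 had a log2 fold change below 0, with a median of -0.14 against -0.01 for all genes tested. The part of the lens and pigment epithelium markers in the values below was not tested.

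None of the 10 genes differed between FDM and control eyes in the edgeR quasi-likelihood test, in which 281 of 17432 genes, 1.61%, had an unadjusted p under 0.05 and none passed after adjustment. DESeq2 also called 0 of the 10, against 0.987% of all genes tested. The levels of FDM and control libraries overlapped for every one of the 10, whereas both FDM libraries lay above every control library for 3.97% of all genes and below every control library for 6.67%. The largest differences were those of Hes5 and Notch1, both with the higher mean in FDM eyes, and both were called under some of the other settings given below. The median log2 fold change of the 10 was 0.01, with 6 above 0 and 4 below, and that of all genes tested was -0.01. In bulk retina, fewer cells that express a gene and less RNA of it per cell cannot be told apart.

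**Figure D1:**
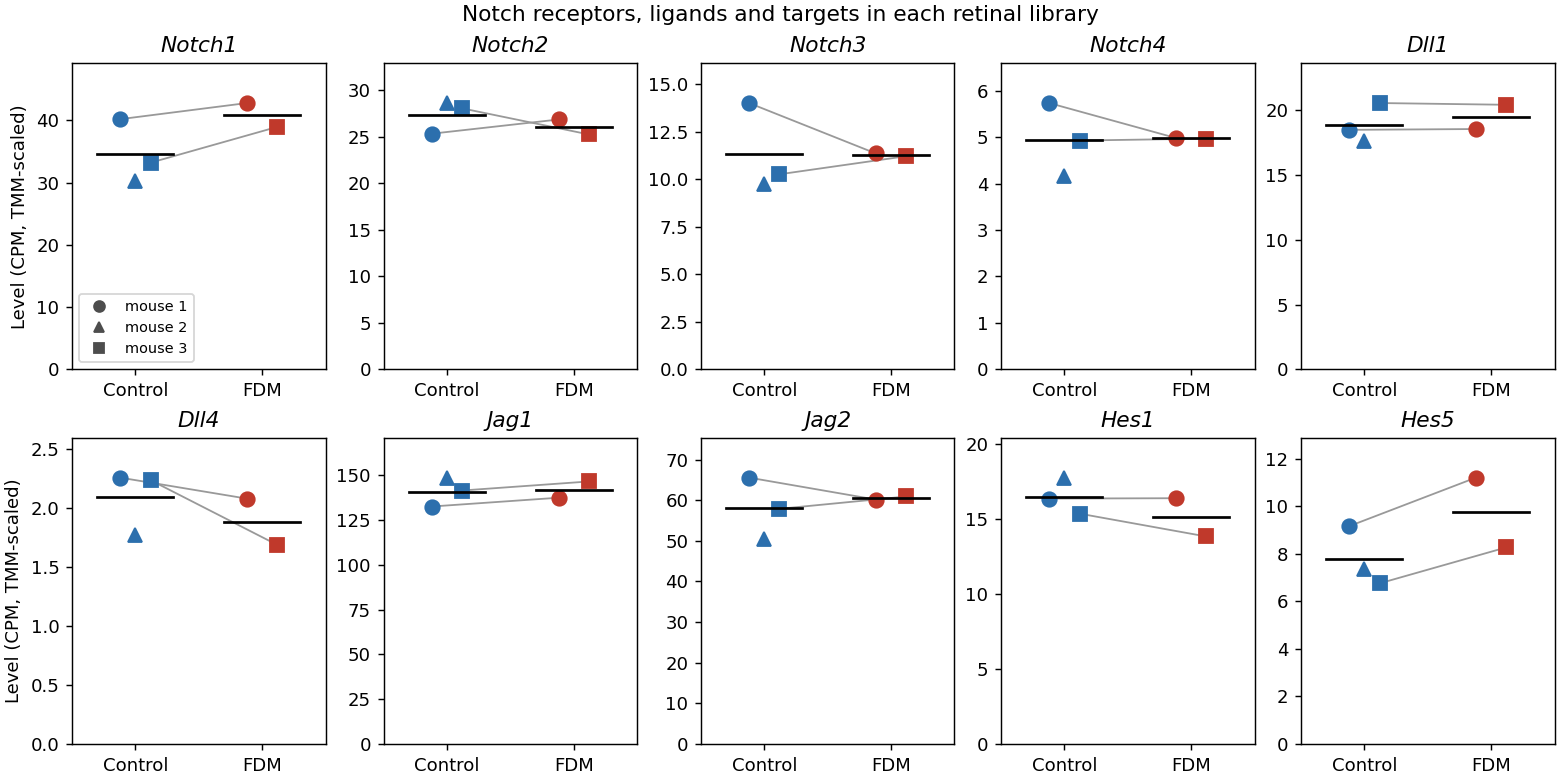
Level of each of the 10 genes (vertical axis, TMM-scaled CPM, starting at 0) in the control and FDM libraries. Each point is a library, its shape gives the mouse, grey lines join the eyes of one mouse and black bars are group means. Both FDM points lie above the control mean for Notch1, Notch4, Jag2 and Hes5, and in every panel the groups overlap.

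The Hes5 promoter is shown because Hes5 is a textbook target of the RBPJ complex and had the largest mean difference of the 10 genes. The 250 bases before its annotated start (RefSeq, GRCm38.p6, chr4:154960673-154960922, forward strand) hold the letters GTGGGAA, the RBPJ core TGGGAA with the G before it, once on each strand. The capitals mark these matches, which begin 226 and 83 bases before the start.

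Hes5: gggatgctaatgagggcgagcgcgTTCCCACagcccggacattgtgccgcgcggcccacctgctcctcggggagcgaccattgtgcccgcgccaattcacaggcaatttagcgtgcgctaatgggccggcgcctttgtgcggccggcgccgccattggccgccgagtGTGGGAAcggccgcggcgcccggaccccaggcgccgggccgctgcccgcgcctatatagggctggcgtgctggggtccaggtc

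GTGGGAA or its reverse complement TTCCCAC occurred at least once in 6.38% and at least 2 times in 0.256% of 32851 RefSeq promoter windows of 300 bases, which reach from 250 bases before a start to 50 after it. The shorter core TGGGAA, which every GTGGGAA contains, occurred at least once in 25.6% and at least 2 times in 3.79%. Windows were found for 9 of the 10 genes, all but Hes1. None of the windows of the other 8 held GTGGGAA on either strand. A match is a stretch of letters and no measure of binding.

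Among the receptors, Notch1, the receptor best known from retinal development (chromosome 2, 26457903 to 26516663, reverse strand of GRCm38), had levels of 42.8 and 39.0 CPM in the FDM libraries (FDM 1 and FDM 3, in this order) and 40.2, 30.3 and 33.2 CPM in Control 1, 2 and 3. FDM 1 was the highest library and Control 2 the lowest, and Control 1 lay between the FDM libraries. Means were 40.9 ± 2.71 CPM (SD, n = 2) in FDM and 34.6 ± 5.08 CPM (SD, n = 3) in control eyes. The log2 fold change was 0.24 with a standard error of 0.13, a 95% interval from -0.06 to 0.54 and an unadjusted p of 0.0969, which ranked 576 of the 17432 genes.

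Notch2, which shares ligands with Notch1 (chromosome 3, 98013527 to 98150361, forward strand), stood at 26.9 and 25.3 CPM in the goggled eyes, against 25.3, 28.6 and 28.1 CPM in the open ones. FDM 3 was the lowest library, just under Control 1, FDM 1 lay within the range of the controls, and the log2 fold change was -0.07 with a 95% interval from -0.28 to 0.14 (unadjusted p of 0.456). Notch3, the mural cell receptor (chromosome 17, 32120820 to 32166852, reverse strand), was at 11.3 and 11.2 CPM in FDM, and 14.0, 9.77 and 10.3 CPM in control retinas. The FDM libraries were close together and the control libraries spread on both sides of them, and the log2 fold change was -0.01 with an interval from -0.40 to 0.39 (unadjusted p of 0.974). Notch4, the endothelial receptor (chromosome 17, 34564268 to 34588503, forward strand), had 4.98 and 4.97 CPM with FDM and 5.74, 4.16 and 4.93 CPM without it. Its log2 fold change was 0.01 with an interval from -0.37 to 0.39 (unadjusted p of 0.935), and Control 1 was the highest and Control 2 the lowest library, as for Notch3.

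Of the ligands, Jag1 (chromosome 2, 137081456 to 137116644, reverse strand) was the most abundant, with 138 and 147 CPM in the goggled eyes, against 133, 149 and 142 CPM in the open ones. Both FDM libraries lay within the control range, and the log2 fold change was 0.01 with a 95% interval from -0.20 to 0.22 (unadjusted p of 0.903). Jag2 (chromosome 12, 112907819 to 112929776, reverse strand) had 60.1 and 60.9 CPM in FDM, and 65.5, 50.5 and 57.9 CPM in control retinas. Here too the controls spanned the FDM libraries, with a log2 fold change of 0.06 and an interval from -0.21 to 0.34 (unadjusted p of 0.610).

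Dll1, the Delta-like ligand of neural progenitors (chromosome 17, 15367354 to 15376872, reverse strand), was measured at 18.5 and 20.4 CPM with FDM and 18.5, 17.6 and 20.6 CPM without it. The values of each mouse were alike, and the log2 fold change was 0.05 with an interval from -0.20 to 0.29 (unadjusted p of 0.668). Dll4, the ligand of endothelial tip cells (chromosome 2, 119325784 to 119335962, forward strand), was the least abundant, with 90 and 81 counts in the goggled eyes, against 90, 101 and 106 counts in the open ones. In CPM these were 2.08, 1.68, 2.25, 1.77 and 2.23 in the same order. FDM 3 was the lowest library, but its 95% counting interval, from 1.34 to 2.09 CPM, reached past the level of Control 2. Its log2 fold change was -0.15 with an interval from -0.61 to 0.32 (unadjusted p of 0.478), the widest interval of the 10 genes.

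The targets Hes1 and Hes5 encode transcriptional repressors that block neuronal differentiation. Their mean differences had opposite signs. Hes1 (chromosome 16, 30064384 to 30067796, forward strand) was at 16.4 and 13.8 CPM in FDM, and 16.4, 17.8 and 15.4 CPM in control retinas. FDM 3 was the lowest library and Control 2 the highest, and the log2 fold change was -0.13 with a 95% interval from -0.40 to 0.15 (unadjusted p of 0.308). Hes5 (chromosome 4, 154960923 to 154962371, forward strand) was at 11.2 and 8.28 CPM with FDM and 9.17, 7.38 and 6.76 CPM without it. FDM 1 was the highest library, Control 1 was above FDM 3, and the means were 9.74 ± 2.08 CPM (SD, n = 2) in FDM and 7.77 ± 1.25 CPM (SD, n = 3) in control eyes. The log2 fold change of Hes5 was 0.33 with a standard error of 0.18, an interval from -0.10 to 0.75 and an unadjusted p of 0.111, which ranked 680 of 17432. For each of the 10 genes the range of the control libraries on the log2 scale was wider than the size of the fold change.

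The extremes of the 10 genes often fell on control libraries, as did those of all genes tested. Control 2 was the highest library for 3 genes and the lowest for 5, and Control 1 was at an extreme for 5. Over all genes tested, Control 2 was at an extreme for 62.3% and Control 1 for 51.7%.

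The eyes of one mouse give another view of the same libraries. In mouse 1, Hes5 was higher in the FDM eye by 0.29 on the log2 scale, with a counting standard error of 0.10, and in mouse 3 by 0.29 with a counting standard error of 0.11, a ratio of 1.22 in each. Notch1 was higher by 0.09 (0.05) in mouse 1 and by 0.23 (0.05) in mouse 3, where the value in brackets is again the counting standard error. Jag1 was higher by 0.05 (0.03) in mouse 1 and by 0.05 (0.02) in mouse 3. Dll4 was the gene that was lower in both, at -0.12 (0.22) and -0.41 (0.21).

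The other 6 genes had opposite signs in the 2 mice. Notch3 was at -0.30 (0.09) in mouse 1 and 0.13 (0.09) in mouse 3, and Jag2 at -0.12 (0.04) and 0.07 (0.04). Notch2 was at 0.08 (0.06) and -0.15 (0.06), Notch4 at -0.20 (0.14) and 0.01 (0.13), Dll1 at 0.00 (0.07) and -0.01 (0.07), and Hes1 at 0.00 (0.08) and -0.15 (0.08). Of the 20 differences, 13 were under 2 counting standard errors. Over all genes tested, 24.6% were higher in the FDM eye of both mice and 30.2% lower in both, and the median size of a difference was 0.10 in either mouse, so that the 3 of 10 genes higher in both were near the background share. Of these 3, Hes5 exceeded the median size in both mice, Notch1 in mouse 3 only, and Jag1 in neither. With the mouse as a block in edgeR, Hes5 had a log2 fold change of 0.29 and an unadjusted p of 0.0178, and Notch1 one of 0.16 and an unadjusted p of 0.0331, while 7.23% of all genes passed in that fit. After Benjamini-Hochberg adjustment over all genes the edgeR values were 0.619 for Hes5 and 0.654 for Notch1, and no other gene of the 10 passed. Control 2 has no partner, so that 2 mice carried this comparison. With the labels' own replicate numbers as the block, in which FDM 3 shares its number with Control 2, 0 of the 10 passed, against 2.52% of all genes, and the unadjusted p was 0.177 for Hes5 and 0.112 for Notch1.

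**Figure D2:**
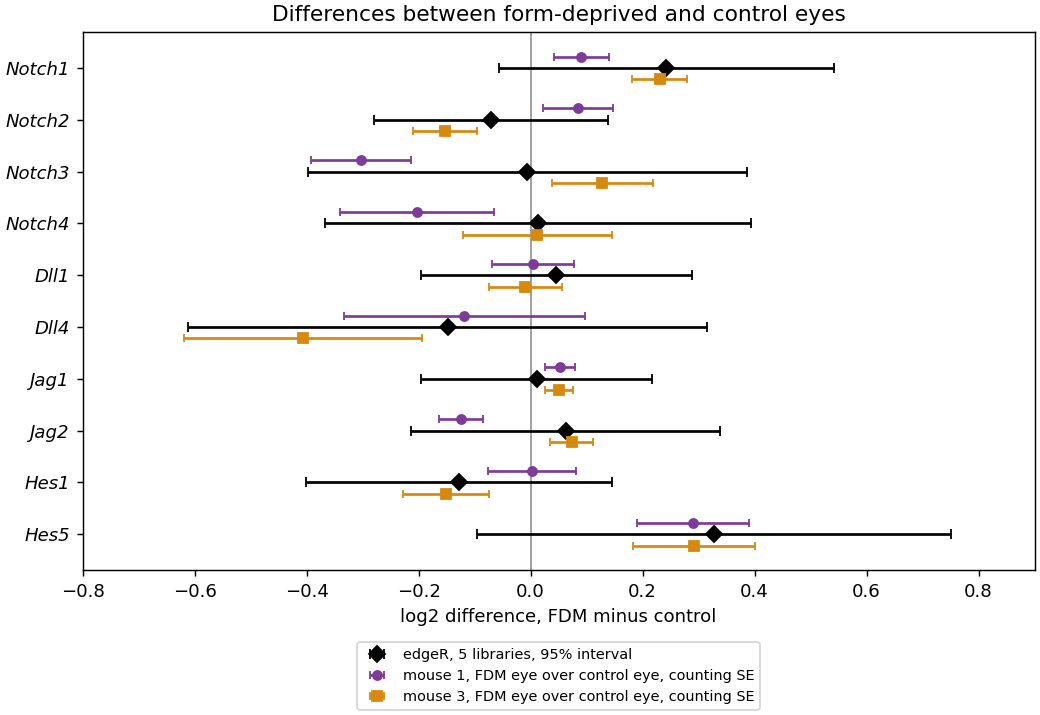
Log2 difference between FDM and control eyes (horizontal axis) for the 10 genes. Black diamonds are edgeR log2 fold changes over 5 libraries with 95% intervals, and coloured points are the differences within mouse 1 and mouse 3 with counting standard errors. All 10 intervals cross 0, and Hes5 lies at 0.29 in both mice.

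Single libraries decided whether Notch1 and Hes5 passed. Without Control 1, the control library with the highest level of both, Notch1 had a log2 fold change of 0.37 with an unadjusted p of 0.00612 and Hes5 one of 0.46 with an unadjusted p of 0.0261, while 5.42% of all genes passed. Without FDM 3, Hes5 had a log2 fold change of 0.53 and an unadjusted p of 0.0343, against 1.12% of all genes, with FDM 1 as the lone FDM library assumed to vary like the controls. Without FDM 1 the log2 fold change of Hes5 was 0.09 and that of Notch1 0.17. The smallest value after Benjamini-Hochberg adjustment in edgeR under any of these was 0.592, for Notch1 without Control 1.

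Levels between genes were compared as CPM per kilobase of annotated exons, averaged over the 5 libraries. Jag1 stood first at 24.3 ± 1.13 CPM per kb (SD over 5 libraries), followed by Jag2 at 8.47 ± 0.791, Hes1 at 7.82 ± 0.714, Hes5 at 6.28 ± 1.28 and Dll1 at 4.53 ± 0.309. Notch1 at 2.61 ± 0.363, Notch2 at 2.49 ± 0.143, Notch3 at 1.40 ± 0.203, Notch4 at 0.615 ± 0.0693 and Dll4 at 0.520 ± 0.0682 CPM per kb came after them. Jag1 was 2.86-fold above Jag2 and 46.6-fold above Dll4. The ranges over libraries of Jag2 and Hes1, of Hes1 and Hes5, of Notch1 and Notch2 and of Notch4 and Dll4 overlapped on this scale. An overlap of ranges leaves out that both genes were measured in the same libraries. In each of the 5 libraries Jag1 ranked 1, Dll1 5, Notch3 8, Notch4 9 and Dll4 10, so that Notch4 was above Dll4 in every library. Notch1 ranked above Notch2 in FDM 1, FDM 3 and Control 1 and below it in Control 2 and Control 3. This order depended on the length used, since the annotated exons of Notch1 cover 14232 bases and its longest transcript 9488. Per kilobase of the longest transcript, Notch1 was at 3.19 to 4.51 CPM per kb over the libraries and Notch2 at 2.41 to 2.73, so that Notch1 was above Notch2 in all 5. On that scale the order of the means was unchanged, the ranges of Notch4 (0.631 to 0.870) and Dll4 (0.449 to 0.602) no longer overlapped, nor did those of Hes1 and Hes5, while those of Hes5 (5.31 to 8.81) and Dll1 (4.91 to 5.74) did.

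**Figure D3:**
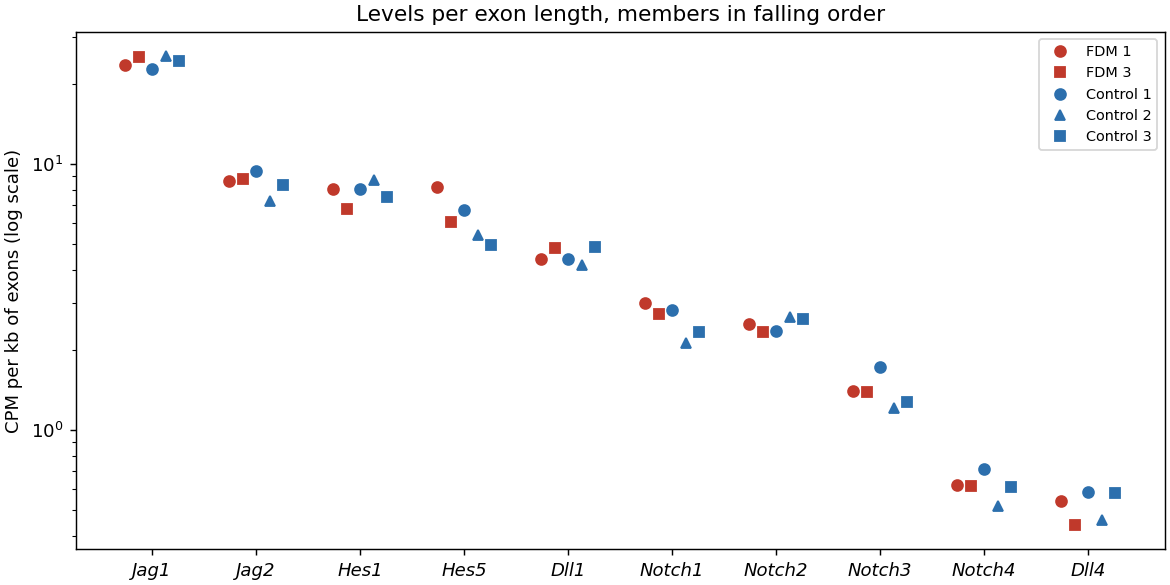
Level of the 10 genes per exon length (vertical axis, CPM per kb, log scale) in falling order of the mean. Each point is one of 5 libraries, red for FDM and blue for control eyes. Jag1 lies above all others in every library, and Notch4 and Dll4 are lowest.

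For Notch1 and Notch4 the authors' normalization moved the values more than for most genes. The deposited normalized counts are the estimated counts divided by a factor for each gene and library, and relative to the median factor of its library the factor of Notch1 was 0.869 and 1.06 in the goggled eyes, against 1.27, 0.973 and 0.881 in the open ones. This is a range of 1.46-fold, wider than that of 98.8% of the 13129 genes with at least 100 counts in every library, whose median range was 1.06-fold. The factor of Notch4 ran the other way, from 1.26 in FDM 1 to 0.892 in Control 1, a range of 1.41-fold that 98.4% of the genes did not reach. Dll4 had a range of 1.29-fold (96.2%), whereas the factors of Jag1 and Notch2 were nearly flat, with 1.02-fold each.

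With these factors the Notch1 values became 2315 and 1733 in FDM, and 1468, 1458 and 1771 in control retinas, in normalized counts. FDM 1 stood above all other libraries and FDM 3 lay below Control 3. The log2 fold change of Notch1 was then 0.37 in DESeq2 with an unadjusted p of 0.0218, against 1.33% of all genes, and 0.37 in edgeR with the factors as offsets with an unadjusted p of 0.0371, against 1.90%. In limma on log2 of the normalized counts it was 0.36 with an unadjusted p of 0.0430 at a pseudocount of 1 and 0.0436 at a pseudocount of 0.1, against 1.72% and 1.68% of all genes. All adjusted values of Notch1 under these factors were above 0.999 by the Benjamini-Hochberg method, and no other gene of the 10 passed.

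Within mouse 1, the Notch1 difference went from 0.09 in CPM to 0.66 in normalized counts, and within mouse 3 from 0.23 to -0.03. Notch4 went from -0.20 to -0.68 in mouse 1 and from 0.01 to -0.12 in mouse 3, and its log2 fold change from 0.01 to -0.24 with the factors as offsets. Hes5 hardly moved, at 0.36 in mouse 1 and 0.28 in mouse 3. The GENCODE M21 annotation gives Notch1 11 transcripts of 157 to 9488 bases and Notch4 12 of 247 to 6591 bases, against 2 for Jag1 and 2 for Notch2. It also gives Dll4 2 transcripts, at a factor range of 1.29-fold, and Jag2 10, at a range of 1.14-fold. For the count matrices of its meta-analysis, which included this study, the paper names the R package tximport. What entered the deposited factors is not given in the sources used here, and the part of the transcripts was not tested.

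**Figure D4:**
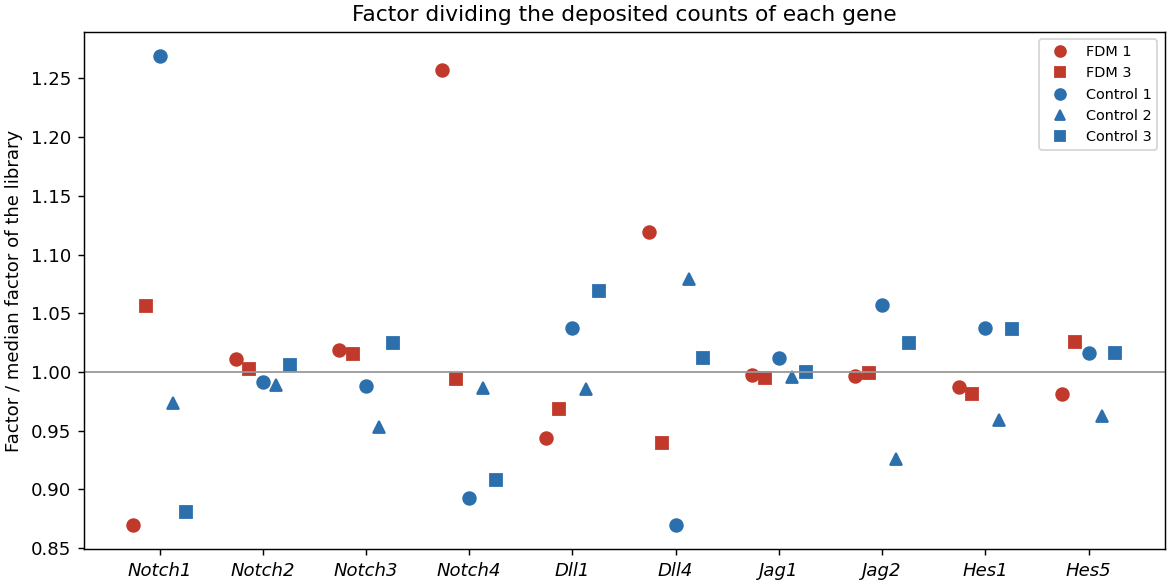
Factor by which the authors divided the estimated count of each of the 10 genes (vertical axis, relative to the median factor of the library, not starting at 0). Points are the 5 libraries. Notch1 in Control 1 at 1.27 and Notch4 in FDM 1 at 1.26 lie farthest from 1, and Jag1 and Notch2 stay near it.

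The library kit does not mark the strand, and several of these genes share exon bases with neighbouring genes that were not analysed here. On the opposite strand, Notch1 shares 1068 bases with 0610009E02Rik and 414 with Gm13568, Notch3 488 with Gm17276, Dll1 867 with A930024N18Rik, Dll4 214 with Gm14207 and Hes5 433 with Gm20421. On the same strand Notch2 shares 541 bases with Gm42820. Reads from these stretches cannot be assigned to one gene of a pair with certainty.

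The remaining machinery of the pathway was followed in 61 genes listed by role, of which 59 passed the filter and 2, Dlk1 and Hes2, were too low, with at most 9 counts in any library. By edgeR 0 of the 59 had an unadjusted p under 0.05, and by DESeq2 also 0. Log2 fold changes were above 0 for 28 and below 0 for 31, with a median of -0.00. In each role the genes with the smallest p are named.

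Of the 3 other ligands tested, Dlk2 had a log2 fold change of -0.21 (SE 0.15) and Dll3 one of 0.21 (SE 0.18). Of the 4 ligand endocytosis genes, the ubiquitin ligase genes Neurl1b and Mib2 were at -0.29 (SE 0.20) and 0.09 (SE 0.11). The 5 receptor glycosylation genes stayed within -0.04 and 0.09, among them the Fringe genes Rfng at 0.09 (SE 0.13) and Mfng at 0.08 (SE 0.14), which modify how receptors answer to Delta-like and Jagged ligands. These 3 roles hold the steps before the receptor is cut.

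The 10 genes of receptor cleavage included the γ-secretase subunits Aph1c at 0.28 (SE 0.15) and Psenen at -0.12 (SE 0.09). Aph1c was at 4.87 and 4.304 CPM in the FDM libraries and at 4.08, 3.30 and 3.94 CPM in the controls. Of the 9 genes of receptor turnover, Dtx1 and Itch, which encode ubiquitin ligases, were at 0.11 (SE 0.10) and -0.14 (SE 0.15).

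Among the 9 nuclear complex genes, the Mastermind-like co-activators Maml2 and Maml3 were at -0.20 (SE 0.11) and 0.08 (SE 0.12), with Maml2 at 10.2 and 10.4 CPM in the FDM libraries and at 11.5, 12.9 and 11.1 CPM in the controls. The 12 co-repressors ranged from Tle3 at -0.12 (SE 0.09) to Tle2 at 0.16 (SE 0.13). Of the 7 genes tested that were listed as other targets, Hes6 had 0.17 (SE 0.15) and Hes7 -0.09 (SE 0.16). Whether Notch controls each gene so listed was not tested, so Hes6 is no reading of Notch output.

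In the fit blocked by mouse, 2 of the 59 passed, Psenen at -0.16 (unadjusted p of 0.0261) and Ep300, a histone acetyltransferase gene, at 0.16 (unadjusted p of 0.0178), against 7.23% of all genes. Without Control 1, the 4 genes Dtx3, Spen, Tle2 and Hes6 passed, with log2 fold changes from 0.24 to 0.30, against 5.42% of all genes. Without Control 2, Ep300 passed at 0.17, against 3.16% of all genes. In the FDM eye of both mice, 15 of the 59 were higher and 17 lower, against 24.6% and 30.2% of all genes tested. Both counts were near these background shares.

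**Figure D5:**
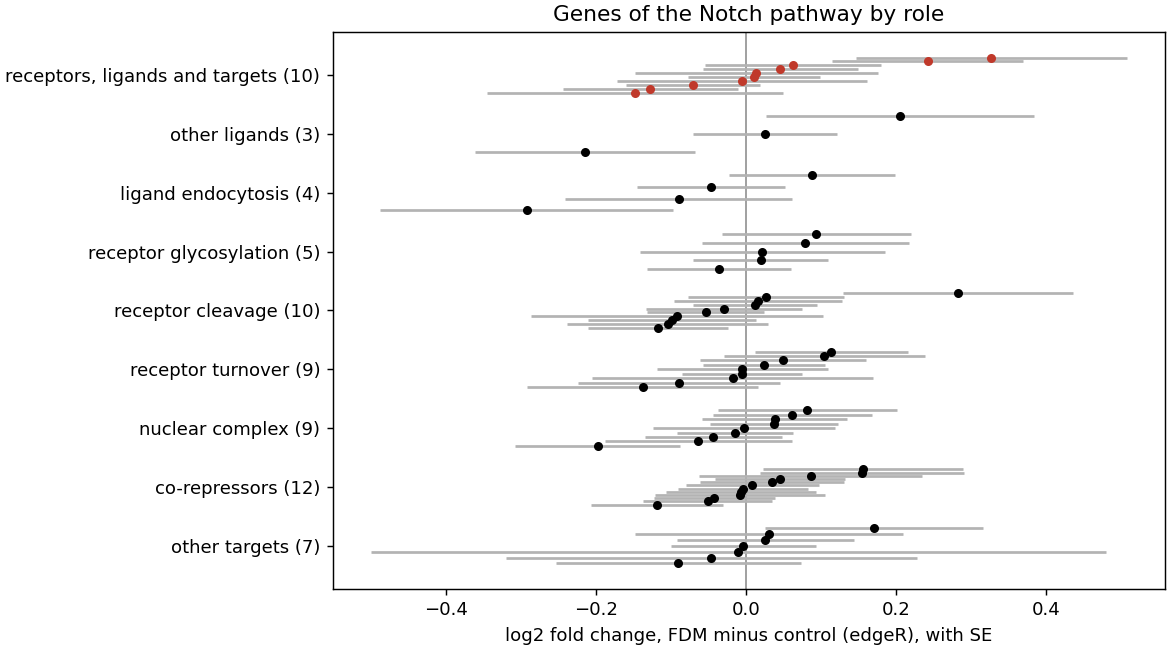
Log2 fold change between FDM and control eyes with its standard error (horizontal axis, edgeR over 5 libraries) for the 10 receptors, ligands and targets (red) and 59 other genes of the pathway (black) by role. Numbers in brackets count the genes drawn. Values lie on both sides of 0 in every role, and Hes5 has the largest of all.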

How the data were processed

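Retinal RNA was sequenced in 2 FDM and 3 control eyes. Per the labels and the study's methods, the authors trimmed reads with Trimmomatic 0.39, quantified transcripts with Salmon 1.10.1 and used DESeq2 in R 4.3.1. The authors deposited whole-number estimated counts per gene and a second table, a signal of normalized counts. All columns were used.

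Of 33636 genes, the 17432 that exceeded 10 counts in 2 or more libraries were tested on the estimated counts with edgeR 4.0.16 (TMM, quasi-likelihood test, no covariate) in R 4.3.3. The threshold was the study's unadjusted p of 0.05, beside Benjamini-Hochberg values over all genes tested. CPM are TMM-scaled, and the standard error is the log2 fold change over the square root of F. Counting intervals and standard errors are Poisson and cover counting error only. The comparison was repeated in DESeq2 1.42.0, in limma 3.58.1 with the log2 normalized signal at a pseudocount of 1 or 0.1, with other scaling factors and filters, with a mouse term, and without each library in turn. DESeq2 with the authors' factors was added after seeing the data. The scripts were tested on simulated counts.

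Groups came from the labels. Mouse numbers came from the count table and the study, and deviations from the group means correlated over 17432 genes at 0.258 for mouse 1 and 0.125 for mouse 3. With 2 FDM libraries each correlation is the mirror image of that with the other FDM library, so it says little beyond the design. All 5 libraries held different counts. The 10 genes and all lists were chosen with earlier results of these data known. All 10 were named, and up to 2 genes of each pathway role by smallest p, and genes that passed or separated the groups under a setting in the text were added after their values were seen. Coordinates are from GENCODE M21 on GRCm38. Promoters are from RefSeq.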

Additional observations from a re-analysis of the deposited data

How the results depend on the processing

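The count of genes with an unadjusted p under 0.05 was 281 and became 172 in DESeq2, 498 with all genes of at least 1 count, 1261 with the mouse as a replicate block, 439 with the label numbers as a block and between 146 and 944 with a library left out. Of the 10 genes, 0 passed, against 1 in limma at a pseudocount of 1 and 1 at 0.1, 1 with the authors' factors as offsets, 1 in DESeq2 with those factors (chosen after seeing the data), 2 with the mouse block and 0 to 2 with a library left out. Of the other pathway genes 0 passed, against 2 with the mouse block and 0 to 4 with a library left out. Over 17 alternatives and 10 genes, 143 of 170 values kept their sign and side of the threshold, 9 newly passed and 18 changed sign. Notch1 and Hes5 were above 0, and Notch2, Dll4 and Hes1 below 0, in all 17. Small differences changed sign. Notch3 was at 0.0024 in DESeq2, 0.0020 with RLE factors, 0.0066 with upper-quartile factors and 0.0073 with totals. Notch4 was at -0.24 in limma at either pseudocount, -0.24 with offsets, -0.24 in DESeq2 with the authors' factors and -0.0945 with the mouse block, where Dll1 was at -0.0026 and Jag2 at -0.0249. With a library left out, ranges crossed 0 for Notch3 (-0.0909 to 0.17), Notch4 (-0.0870 to 0.13), Dll1 (-0.0252 to 0.12), Jag1 (-0.0358 to 0.0616) and Jag2 (-0.0166 to 0.16). The cause was not tested. The lowest adjusted value of the 10 genes under any setting was 0.592. The block leaves 1 pair for each of 2 mice and 1 residual degree of freedom, and depth limits Dll4 most, with 81 to 106 counts.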

Other observations

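Ratios of estimated counts between genes of one library do not depend on the library's total, but they do depend on factors specific to a gene, such as those of the authors. Of the 45 ratios among the 10 genes, 7 did not overlap between FDM and control libraries in estimated counts, and there all 7 contained Notch1 or Hes5. They share genes and libraries, were chosen after their values were seen, and were not tested. With the authors' normalized counts, a setting chosen after seeing the data, 7 ratios did not overlap either, but only 3 were the same, Notch1 to Dll4, Notch1 to Hes1 and Hes1 to Hes5, and 4 were lost, Notch1 to Notch3, Notch4 and Jag2 and Dll4 to Hes5. New under that setting were Notch1 to Notch2, Notch2 to Dll1, Notch2 to Jag1 and Dll1 to Jag1, most of which contain neither Notch1 nor Hes5. Among single genes, both FDM libraries lay above all controls for 3.97% and below them for 6.67% of all genes tested. These shares are of single genes and are no background for ratios. The share among ratios of all genes tested was not computed, so that the 7 of 45 cannot be read as a trait of these genes.

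Hes1 and Hes5, the pair of target genes, had mean differences of opposite sign. The ratio of Hes1 to Hes5 counts was 1.46 and 1.67 in FDM 1 and 3, and 1.78, 2.40 and 2.27 in Control 1, 2 and 3. In the authors' normalized counts it barely separated, at 1.746 in FDM 3 and 1.747 in Control 1. The ratio of Notch1 to Notch4 counts was 8.59 and 7.84 with FDM, and 7.01, 7.29 and 6.74 in the controls. In normalized counts FDM 3, at 7.38, lay just under Control 2, at 7.39. Notch1 to Hes1 was at 2.61 and 2.82 with FDM, and at 2.46, 1.71 and 2.16 in the controls. In estimated counts Notch1 was also higher in both FDM libraries relative to Notch3, Dll4 and Jag2, and Hes5 relative to Dll4.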
